A study of Mus musculus with 6 samples.

Results

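The genes described here are the 9 that carry water and sodium transport, and its hormonal control, in the principal cells of the kidney collecting duct. They are the aquaporin water channels Aqp2, Aqp3 and Aqp4, the vasopressin receptor Avpr2, the epithelial sodium channel (ENaC) subunits Scnn1a, Scnn1b and Scnn1g, the steroid-inactivating enzyme Hsd11b2 and the sodium pump regulator Fxyd4. They were found by their symbols, a rule that uses no measured value, and all 9 were found among the 32285 genes of each library. The series profiled mouse kidney in Alport syndrome, which is caused by faults in the genes of basement membrane collagen IV, with 10x Genomics Visium. In this assay, barcoded spots on a slide each capture RNA from the several cells above them, and molecules are counted as unique molecular identifiers (UMIs).

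There were 6 libraries, 1 for each group. The WT library came from kidney of B6C57 genotype. The 2m AS and 5m AS libraries came from Alport mice of the genotype B6.Cg-Col4a5tm1Yseg at 2 and 5 months, as the labels 2m and 5m are read here. A library called early treated 5m AS, and another called late treated, came from mice of the same genotype at 5 months that had received hEV. The last library, called mixed below, held WT female and heterozygous female tissue of these same 2 genotypes together and was kept as 1 sample. The labels do not give the age of the WT and mixed animals, the dose, what early and late meant, or how many animals stood behind each library. With 1 library in each group there was no replicate check and no test. The intervals in parentheses reflect the number of UMIs counted and say nothing of how animals or sections vary.

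The libraries held between 48940875 and 91976637 UMIs over 1997 to 4093 spots, with a median of 12736 to 28433 UMIs per spot. Mitochondrially encoded genes took 11.9% of UMIs in WT and 6.0% to 8.32% in the others. Space Ranger 1.2.1 made the counts of the WT and 5m AS libraries, whereas 1.3.1 was used for the remaining 4, so between libraries of different versions group and version cannot be told apart. Col4a5, the gene named in the genotype, was at 11.9 scaled CPM (UMIs per 1000000 of the library's effective size) in WT and 13.2 in the mixed library, and at 3.39 to 6.54 in the 4 AS libraries. Kidney markers were present throughout: 8 early proximal tubule genes summed to between 4010 and 10776 scaled CPM. Slc14a2, the urea transporter of the inner medullary collecting duct, had no UMI in WT and mixed. It had 0.624 scaled CPM in 5m AS and at most 0.134 in the other AS libraries. Markers of urothelium and papillary surface summed to at most 6.40. Of 4922 slide barcodes, 486 occurred in all 6 libraries, because a barcode names a position on the slide design and not a cell.

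As background, principal cells take up water and sodium from the urine under the control of vasopressin and aldosterone. Vasopressin binds AVPR2 on the basolateral side, cyclic AMP rises, and AQP2 moves into the apical membrane, while AQP3 and AQP4 let the water leave on the basolateral side. Sodium enters through ENaC, which is assembled from the SCNN1A, SCNN1B and SCNN1G subunits, and leaves through the sodium pump, whose kinetics FXYD4 alters. HSD11B2 inactivates glucocorticoids, so that the mineralocorticoid receptor in these cells answers to aldosterone.

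The genes lie apart in the genome except for a neighbouring pair. In mm10 coordinates with GENCODE M21 annotation, all are protein coding. Aqp2 spans 99579055 to 99584547 on chromosome 15, Aqp3 41092722 to 41098183 on chromosome 4 and Avpr2 73892102 to 73895502 on chromosome X. Scnn1a spans 125320659 to 125344943 and Fxyd4 117933559 to 117937692 on chromosome 6, and Hsd11b2 lies at 105518755 to 105523988 on chromosome 8. Scnn1g, at 121734479 to 121768475 on chromosome 7, and Scnn1b, at 121865038 to 121918514, lie on the same strand with 96562 bases between them. Avpr2 overlaps L1cam and Arhgap4 on the other strand, Scnn1b overlaps Cog7, and Aqp4 overlaps the antisense gene AC133525.2. How strand was handled in counting was not given in the sources used here, so reads from these overlaps cannot be assigned with certainty.

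The start regions of Aqp2, Fxyd4, Scnn1g and Scnn1b are shown because the results below turn on Aqp2 and Fxyd4 set against Scnn1g and Scnn1b. The sequences are from RefSeq on GRCm38.p6 (the mm10 build), 5′ to 3′ on the gene's strand, and are the 250 bases before the RefSeq start. They lie at chr15:99578806-99579055 (plus strand), chr6:117937336-117937585 (minus strand), chr7:121734229-121734478 (plus strand) and chr7:121864788-121865037 (plus strand). The Fxyd4 bases lie inside the gene as GENCODE M21 spans it, 117933559 to 117937692, so RefSeq and GENCODE differ on its start. Capitals mark matches, on either strand, to 4 short motifs: GATAA (GATA factors), TGACG (from the cyclic AMP response element), AGAACA (from the steroid receptor element) and TGGAAA (the core of the tonicity element).
Aqp2: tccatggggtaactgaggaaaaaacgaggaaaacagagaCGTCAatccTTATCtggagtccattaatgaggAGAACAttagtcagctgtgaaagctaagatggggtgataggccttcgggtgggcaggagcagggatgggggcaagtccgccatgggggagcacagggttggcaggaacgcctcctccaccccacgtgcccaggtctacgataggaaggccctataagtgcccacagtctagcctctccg
Fxyd4: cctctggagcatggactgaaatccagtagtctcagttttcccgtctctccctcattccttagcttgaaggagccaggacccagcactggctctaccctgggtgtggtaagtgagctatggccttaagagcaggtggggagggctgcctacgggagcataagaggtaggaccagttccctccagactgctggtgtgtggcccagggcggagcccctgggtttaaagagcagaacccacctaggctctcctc
Scnn1g: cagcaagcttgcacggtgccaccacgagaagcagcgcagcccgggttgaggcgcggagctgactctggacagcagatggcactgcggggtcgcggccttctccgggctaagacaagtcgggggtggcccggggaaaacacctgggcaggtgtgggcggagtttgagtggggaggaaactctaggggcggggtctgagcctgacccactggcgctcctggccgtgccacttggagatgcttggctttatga
Scnn1b: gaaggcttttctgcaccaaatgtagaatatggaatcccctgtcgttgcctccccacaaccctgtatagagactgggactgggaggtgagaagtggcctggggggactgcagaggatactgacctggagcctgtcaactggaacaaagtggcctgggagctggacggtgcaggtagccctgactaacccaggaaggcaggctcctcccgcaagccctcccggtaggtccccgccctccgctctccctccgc
Motifs were searched from 250 bases before to 50 bases after the start, and no match in these 4 genes lay after it. The Aqp2 window held the GATA, cyclic AMP and steroid receptor motifs, 1 match each, all at least 179 bases before the start, and the other 3 windows held none of the 4 motifs. Among 32851 RefSeq windows of the same length, 25.4% held the GATA motif, 20.8% the cyclic AMP motif, 19.0% the steroid receptor motif and 21.4% the tonicity motif. The Fxyd4 window did not reach the bases before its GENCODE start, which were not searched. Windows were at hand for 6 of the 9 genes. The Avpr2 window held the GATA motif and 2 matches of the steroid receptor motif, and the Aqp3 window held none. A match of so few letters describes the sequence and does not show a bound site.

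In whole sections, the genes did not move as a set. Levels are scaled CPM over all spots of a library and are compared between libraries for 1 gene at a time. Aqp2 was highest in 5m AS, where the ENaC subunits were at or near their lowest level, and Aqp2 was lowest in late treated 5m AS. The 3 ENaC subunits, Hsd11b2 and Avpr2 were lower in both untreated AS libraries than in WT and in the mixed library. Fewer principal cells in a section and less RNA per cell cannot be told apart in such sums.

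**Figure D1:**
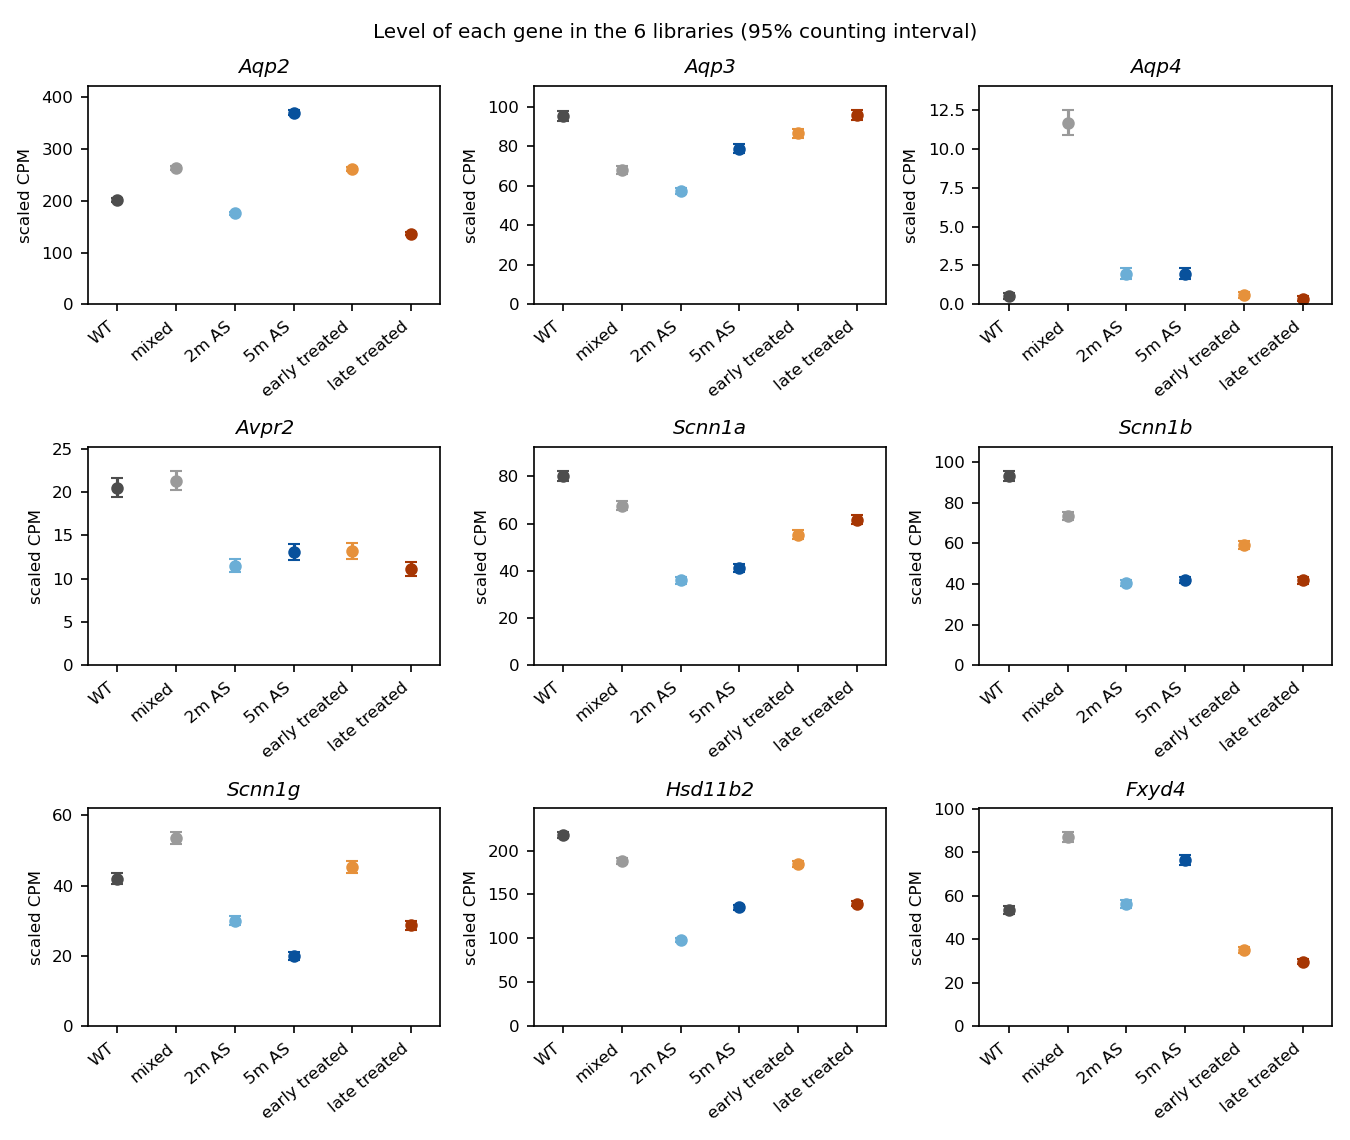
Level of each of the 9 genes, in scaled CPM (vertical axes, starting at 0), in the 6 libraries, with 1 point per library and bars for the 95% counting interval. Aqp2 peaks in 5m AS at 370, the ENaC subunits and Hsd11b2 are lower in 2m AS and 5m AS than in WT and mixed, and Aqp4 stands out only in the mixed library at 11.6.

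Among the water channels, Aqp2, the vasopressin-regulated apical channel, had 201 scaled CPM in WT, 263 in mixed, 176 in 2m AS, 370 in 5m AS, 261 after early and 137 after late treatment. The 5m AS library stood above all others, at 1.41-fold the mixed library, the next in order (1.38 to 1.44). The mixed and early treated libraries did not differ beyond counting error. Aqp3, the basolateral water and glycerol channel, had 95.3 in WT, 68.0 in mixed, 57.3 in 2m AS, 78.6 in 5m AS, 86.4 after early and 95.8 after late treatment. Its order differed from that of Aqp2: the late treated library, lowest for Aqp2, was highest for Aqp3 together with WT, and these top 2 were within counting error of each other.

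Because the quotient of 2 genes in 1 library does not depend on how libraries are scaled, it was followed as well. It is compared between libraries and does not rank the genes. There were 0.473 Aqp3 UMIs per Aqp2 UMI in WT, 0.258 in mixed, 0.325 in 2m AS, 0.212 in 5m AS, 0.331 after early and 0.702 after late treatment. The lowest quotient was that of untreated 5m AS (0.206 to 0.219) and the highest that of late treated 5m AS (0.680 to 0.725).

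Aqp4, the basolateral channel of the collecting duct that is also present in part of the proximal tubule of mice, was rare except in 1 library. It had 0.527 scaled CPM in WT, 11.6 in mixed, 1.97 in 2m AS, 1.96 in 5m AS, 0.573 after early and 0.358 after late treatment. These are 36, 812, 145, 116, 33 and 24 UMIs. The mixed library was 22.1-fold above WT (15.8 to 31.8). The other 5 libraries were below the 5 scaled CPM set for a gene to count as measured, and their ratios are not counted as calls.

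The vasopressin receptor Avpr2 had 20.5 scaled CPM in WT and 21.3 in mixed, which did not differ beyond counting error. It had 11.5 in 2m AS, 13.1 in 5m AS, 13.2 after early and 11.1 after late treatment. All 4 AS libraries lay below both others, at 0.544 to 0.642 of WT, and treated and untreated libraries of 5 months differed little (early treated 1.01-fold, 0.909 to 1.11; late treated 0.853-fold, 0.770 to 0.944).

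The alpha subunit of ENaC, Scnn1a, which the channel needs to conduct, had 80.0 scaled CPM in WT, 67.6 in mixed, 35.9 in 2m AS, 41.1 in 5m AS, 55.3 after early and 61.6 after late treatment. The beta subunit Scnn1b had 93.2, 73.3, 40.5, 41.9, 59.0 and 41.8 in the same order. The gamma subunit Scnn1g had 42.0, 53.4, 29.99, 19.9, 45.3 and 28.7. All 3 were lower in 2m AS and in 5m AS than in WT and mixed, but the treated libraries differed by subunit. Early treated 5m AS was above untreated 5m AS for all 3, while late treated 5m AS was above it for Scnn1a and Scnn1g and within counting error of it for Scnn1b.

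The subunits also shifted against one another. Per Scnn1a UMI there were 0.525 Scnn1g UMIs in WT, 0.790 in mixed, 0.835 in 2m AS, 0.485 in 5m AS, 0.820 after early and 0.466 after late treatment. The Scnn1b quotient to Scnn1a stayed between 1.02 and 1.16 in 5 libraries and was 0.679 in late treated 5m AS (0.647 to 0.712). Taking the 3 subunits against the 3 aquaporins, there were 0.724 ENaC UMIs per aquaporin UMI in WT, 0.567 in mixed, 0.452 in 2m AS, 0.228 in 5m AS, 0.458 after early and 0.568 after late treatment. The 5m AS value was the lowest of the 6, with an interval of 0.222 to 0.235, and the 5 others lay above 0.44.

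**Figure D2:**
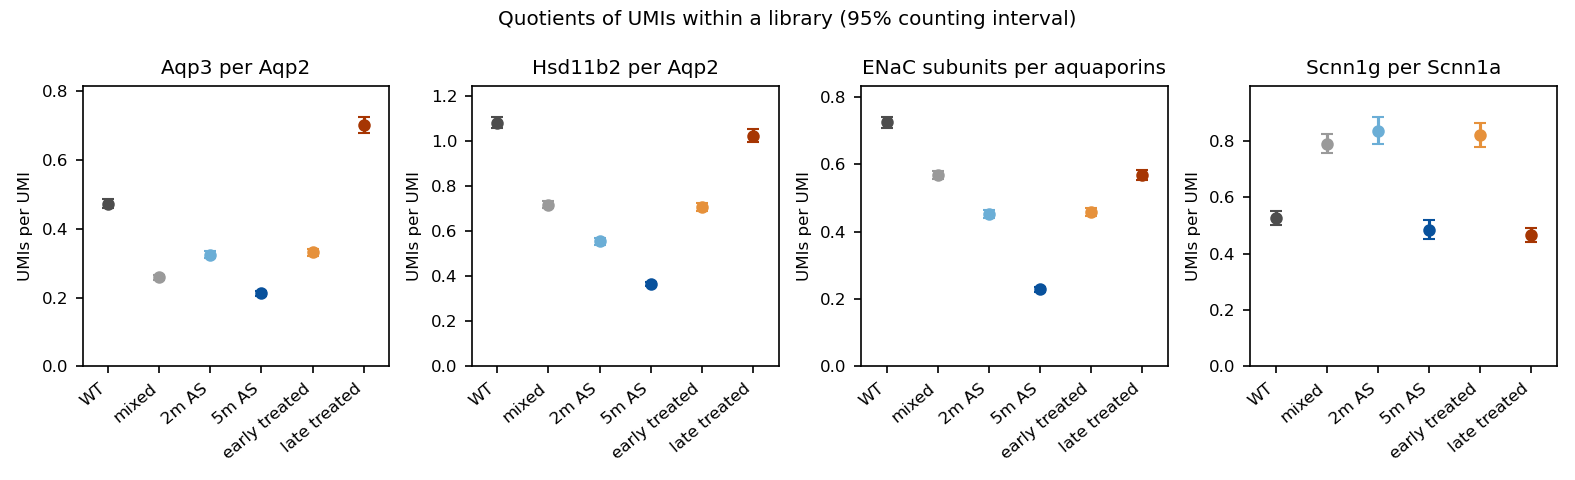
UMIs of one gene or group per UMI of another within each library (vertical axes, starting at 0), with 95% counting intervals. The 5m AS library is lowest for Aqp3 per Aqp2 (0.212), Hsd11b2 per Aqp2 (0.366) and ENaC subunits per aquaporins (0.228), while Scnn1g per Scnn1a is lowest in late treated and untreated 5m AS (0.466 and 0.485), which overlap in their intervals.

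Hsd11b2, which guards the mineralocorticoid receptor, had 217 scaled CPM in WT, 188 in mixed, 97.7 in 2m AS, 135 in 5m AS, 184 after early and 140 after late treatment. The lowest library was 2m AS, and early treated 5m AS did not differ from mixed beyond counting error. Per Aqp2 UMI it had 1.08 UMIs in WT and 1.02 in late treated 5m AS, against 0.366 in 5m AS. Fxyd4, also known as CHIF, had 53.3 scaled CPM in WT, 86.9 in mixed, 56.2 in 2m AS, 76.3 in 5m AS, 35.0 after early and 29.8 after late treatment. Both treated libraries lay below all 4 others.

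In 2m AS against WT 0 of 8 measured genes were at least 1.5-fold higher and 5 were at least 1.5-fold lower. Over all genes measured in these libraries, 7.78% were that much higher and 8.28% lower. The 5 were Scnn1b at 0.434-fold (0.416 to 0.454), Scnn1a at 0.449-fold, Hsd11b2 at 0.450-fold, Avpr2 at 0.562-fold and Aqp3 at 0.601-fold. The median log2 ratio of the 8 was -0.78, beside -0.05 over all genes. At least 2-fold lower were 3 of the 8, Scnn1a, Scnn1b and Hsd11b2, beside 1.41% of all genes. Aqp2 was at 0.875-fold (0.854 to 0.896) and Fxyd4 at 1.05-fold (1.01 to 1.10), and the latter was at 0.984-fold in plain CPM. Markers of other cell types moved in the same pair of libraries. At least 1.5-fold lower in 2m AS were 8 of 10 intercalated cell markers (420 scaled CPM in all against 816 in WT), 6 of 8 of the distal convoluted and connecting tubule (961 against 1625) and 6 of 8 of podocytes (164 against 273). Of 8 thick ascending limb markers, 4 were higher and 1 lower (5074 against 3486). Their part in the result was not tested.

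In 5m AS against WT Aqp2 was the 1 gene of 8 at least 1.5-fold higher, at 1.84-fold (1.80 to 1.88), beside 11.9% of all genes. Another 5 genes were at least 1.5-fold lower, beside 12% of all genes. They were Scnn1b at 0.450-fold (0.429 to 0.471), Scnn1g at 0.475-fold, Scnn1a at 0.514-fold, Hsd11b2 at 0.623-fold and Avpr2 at 0.638-fold. At least 2-fold lower were 2 of the 8, Scnn1b and Scnn1g, beside 3.73%. Fxyd4 was at 1.43-fold and Aqp3 at 0.825-fold. The median log2 ratio of the 8 was -0.67, and that of all genes was -0.12. Plain CPM, without the correction for composition, moves the median of all genes by 0.40 on the log2 scale. Aqp3 was then at 1.09-fold, which turns its direction. In plain CPM 2 genes were at least 1.5-fold higher, beside 23.4% of all genes, and 2 lower, beside 3.87%. In the same libraries 9 of 10 intercalated cell markers and 8 of 8 of the distal convoluted and connecting tubule were at least 1.5-fold lower in 5m AS. Of 8 thick ascending limb markers, 4 were higher and 1 lower (4965 scaled CPM in all against 3486 in WT). Of 5 measured thin limb and inner medulla markers, 2 were higher and 0 lower (829 against 779). The part of all these lists in the result, and which kidney regions each section held, was not tested.

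The mixed library can stand in for WT as another library with WT tissue, although it also holds heterozygous tissue. Against it, 5m AS had 5 of 9 genes at least 1.5-fold lower, beside 14.8% of all genes, and 0 higher, beside 13.8%. They were Scnn1g at 0.373-fold, Scnn1b at 0.572-fold, Scnn1a at 0.609-fold, Avpr2 at 0.614-fold and Aqp4 at 0.168-fold, so the first 4 were at least 1.5-fold lower against WT and mixed alike. Hsd11b2 was at 0.719-fold. Aqp2 was at 1.41-fold (1.38 to 1.44), under 1.5-fold, while Fxyd4 and Aqp3 were at 0.878-fold and 1.16-fold, the opposite of their directions against WT. Fxyd4 was at 1.06-fold in plain CPM. The 2m AS library had 7 of 9 genes at least 1.5-fold lower than mixed, all but Aqp2 and Aqp3, beside 7.34% of all genes, and 0 higher, beside 7.5%.

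Between the 2 untreated ages, 5m AS against 2m AS, Aqp2 was 2.10-fold higher (2.06 to 2.15) and Scnn1g was at 0.665-fold (0.619 to 0.714). These were 1 of 8 at least 1.5-fold higher, beside 16.9% of all genes, and 1 of 8 lower, beside 19.6%. Hsd11b2, Aqp3 and Fxyd4 were at 1.38-fold, 1.37-fold and 1.36-fold. Scnn1a was at 1.15-fold and Scnn1b at 1.04-fold (0.982 to 1.09). Plain CPM moves the median of all genes by 0.50 in this comparison, and 6 of the 8 genes are then at least 1.5-fold higher, beside 41.2% of all genes, and 0 lower, beside 5.34%.

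**Figure D3:**
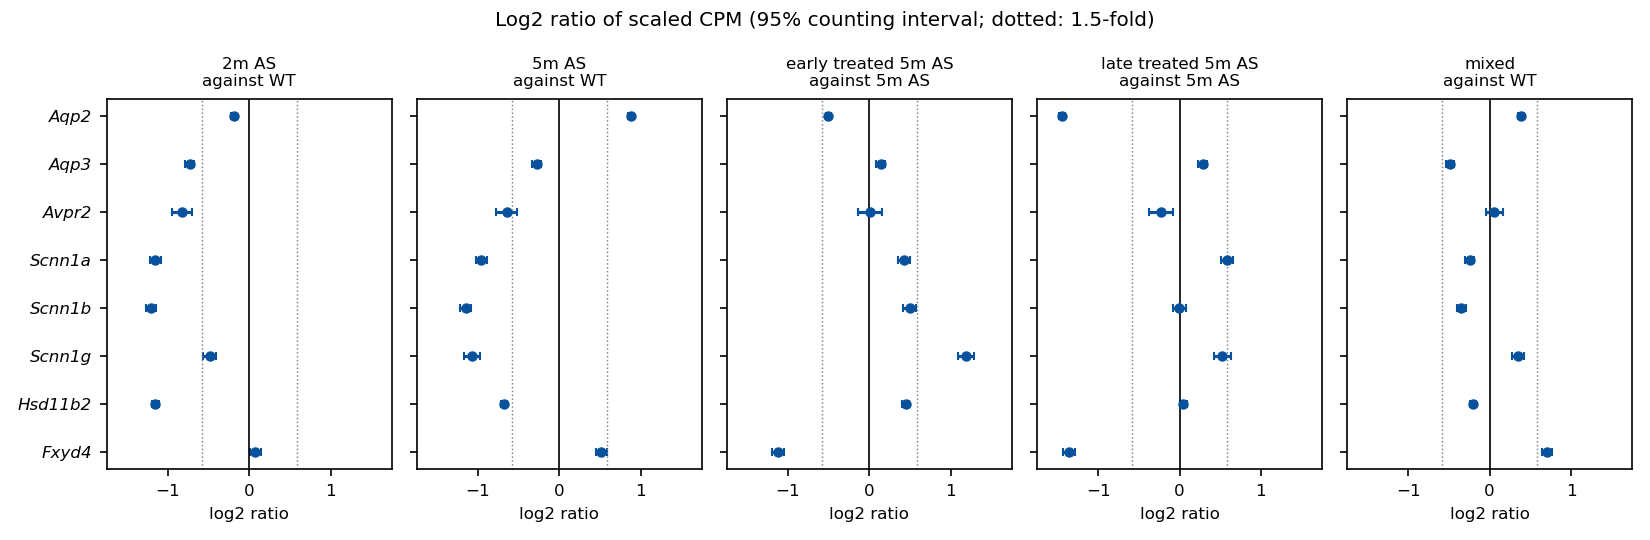
Log2 ratio of scaled CPM (horizontal axes) of the 8 genes other than Aqp4 in 5 comparisons, with 95% counting intervals, a solid line at 0 and dotted lines at 1.5-fold. Aqp2 lies to the right in 5m AS against WT and to the left in both treated libraries against 5m AS. All genes shown but Aqp2 and Fxyd4 lie to the left both in 2m AS against WT and in 5m AS against WT.

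The treated libraries were compared with untreated 5m AS, which they share as control. In early treated 5m AS, Scnn1g was 2.27-fold higher (2.12 to 2.44), 1 of 8 genes beside 3.98% of all genes. Fxyd4 was at 0.459-fold (0.435 to 0.484), 1 of 8 beside 4.86%. Scnn1b, Hsd11b2 and Scnn1a were at 1.41-fold, 1.36-fold and 1.34-fold, and Aqp2 was at 0.705-fold (0.691 to 0.720). In late treated 5m AS, no gene was at least 1.5-fold higher, beside 7.94% of all genes. Aqp2 at 0.369-fold (0.360 to 0.378) and Fxyd4 at 0.390-fold (0.370 to 0.411) were at least 1.5-fold lower, 2 of 8 beside 11.1%. Scnn1a at 1.497-fold and Scnn1g at 1.44-fold were just under the threshold. Of 8 distal convoluted and connecting tubule markers, 7 were at least 1.5-fold higher in early and 8 in late treated 5m AS, with 0 lower in either. Of 8 thick ascending limb markers, 5 were lower and 0 higher in early, and 4 lower and 1 higher in late treated 5m AS. The part of these lists in the ratios was not tested.

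Set against each other, early treated 5m AS had 1.91-fold as much Aqp2 as late treated (1.86 to 1.96) and 1.58-fold as much Scnn1g (1.49 to 1.68). These were 2 of 8 genes higher, beside 3.7% of all genes, and 0 of 8 were lower, beside 2.02%. Scnn1b was at 1.41-fold, Hsd11b2 at 1.32-fold, Scnn1a at 0.898-fold and Aqp3 at 0.902-fold. Against WT, early treated 5m AS had 3 of 8 genes at least 1.5-fold lower, Scnn1b, Avpr2 and Fxyd4, beside 10.4% of all genes. Late treated 5m AS had 4 of 8 lower, the same 3 and Hsd11b2, beside 11.6%. In neither was a gene of the 8 at least 1.5-fold higher than in WT, beside 9.07% and 7.19%.

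In the mixed library against WT, Aqp4 and Fxyd4 were 2 of 9 genes at least 1.5-fold higher, beside 7.87% of all genes, and 0 were lower, beside 8.61%. Fxyd4 was at 1.63-fold (1.56 to 1.70) and Aqp2 at 1.31-fold. Sgk1, an aldosterone-induced kinase that keeps ENaC at the membrane, was 3.19-fold higher there. Genotype, sex, number of animals and software version all differ or may differ between these libraries and cannot be told apart.

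To relate the genes to how much collecting duct a section held, 8 other collecting duct genes were used as a reference (Npnt, Gata3, Hoxb7, Tfcp2l1, Elf5, Apela, Cldn8 and Ehf). Their sum was 315 scaled CPM in WT, 325 in mixed, 229 in 2m AS, 287 in 5m AS, 310 after early and 310 after late treatment. The sum was thus lowest in 2m AS and between 287 and 325 in the rest. Most of its fall from WT to 2m AS came from Tfcp2l1, at 135 and 61.5. Npnt, Gata3, Cldn8 and Ehf were lower in 2m AS too. Hoxb7 was higher there, at 39.9 against 28.9 in WT, as were Apela, at 20.5 against 13.6, and the rare Elf5. Cldn8, a tight junction gene of the collecting duct, was lowest in 5m AS at 29.7, against 57.6 in WT, so the reference itself is not constant.

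Per 100 reference UMIs there were 64.0 Aqp2 UMIs in WT, 80.9 in mixed, 76.8 in 2m AS, 129 in 5m AS, 84.3 after early and 44.1 after late treatment. On this scale Aqp2 in 5m AS was at 2.02-fold WT. Scnn1b had 29.6, 22.5, 17.6, 14.6, 19.1 and 13.5 in the same order, which puts 5m AS at 0.494 of WT. Scnn1g had 13.3, 16.4, 13.1, 6.95, 14.6 and 9.27, so that 2m AS was at 0.979 of WT and 5m AS at 0.521. Relative to the reference, then, 2m AS had 3 genes below WT by at least 1.5-fold, beside 1.28% of all genes, and 0 above, beside 32.6%. The 5m AS library had 3 below, beside 8.2%, and 2 above, beside 14.4%.

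Spots whose share of reference UMIs was in the upper 10% of all spots pooled, at least 6.50 per 10000 UMIs, were taken as rich in collecting duct. They made up 4.25% of spots in WT (174 spots), 9.11% in mixed, 2.91% in 2m AS (93 spots), 7.53% in 5m AS (150 spots), 19.6% after early and 17.3% after late treatment. After thinning every spot to 5000 UMIs, spots with at least 4 reference UMIs were 6.64%, 10.8%, 4.25%, 11.1%, 17.3% and 17.9% in the same order. Both ways, treated sections had the largest share and 2m AS the smallest.

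Many spots lay close to that bound: 156 WT spots and 70 2m AS spots had a share within 10% of it, on either side. In rich spots, Aqp2 had 470 scaled CPM in WT, 824 in mixed, 873 in 2m AS, 1050 in 5m AS, 679 after early and 336 after late treatment. The WT level was thus below both untreated AS levels. In the other spots the 6 levels of Aqp2 were 191, 229, 166, 334, 189 and 103, so that 2m AS was below WT there and above it in rich spots.

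The contrast of 5m AS with WT was similar in rich spots and in whole sections. Aqp2 was at 2.23-fold (2.09 to 2.39) and Fxyd4 at 1.79-fold (1.56 to 2.07), while Scnn1a was at 0.443-fold, Scnn1b at 0.489-fold, Scnn1g at 0.516-fold, Hsd11b2 at 0.531-fold and Avpr2 at 0.655-fold. The contrast of 2m AS with WT was not similar. There Fxyd4 was at 2.17-fold (1.84 to 2.57), Aqp2 at 1.86-fold (1.70 to 2.03) and Scnn1g at 1.56-fold (1.31 to 1.86). Scnn1a was at 0.567-fold, and Scnn1b and Hsd11b2 were both at 0.899-fold. Aqp3 at 1.28-fold (1.09 to 1.49) and Avpr2 at 1.04-fold (0.769 to 1.40) were on the other side of WT from their whole-section ratios. Between the untreated ages, 5m AS against 2m AS, Aqp2 in rich spots was at 1.202-fold (1.12 to 1.29), less than in whole sections. Scnn1g was at 0.330-fold, Scnn1b at 0.544-fold, Hsd11b2 at 0.591-fold, Avpr2 at 0.628-fold, Scnn1a at 0.782-fold and Fxyd4 at 0.825-fold, all but Scnn1g on the other side of 2m AS from their whole-section ratios. Aqp3 was at 0.915-fold (0.789 to 1.06). In the treated libraries against 5m AS, Aqp2 was at 0.646-fold in early and 0.320-fold in late treated rich spots, Fxyd4 at 0.341-fold and 0.261-fold, and Scnn1g at 2.01-fold and 1.43-fold.

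**Figure D4:**
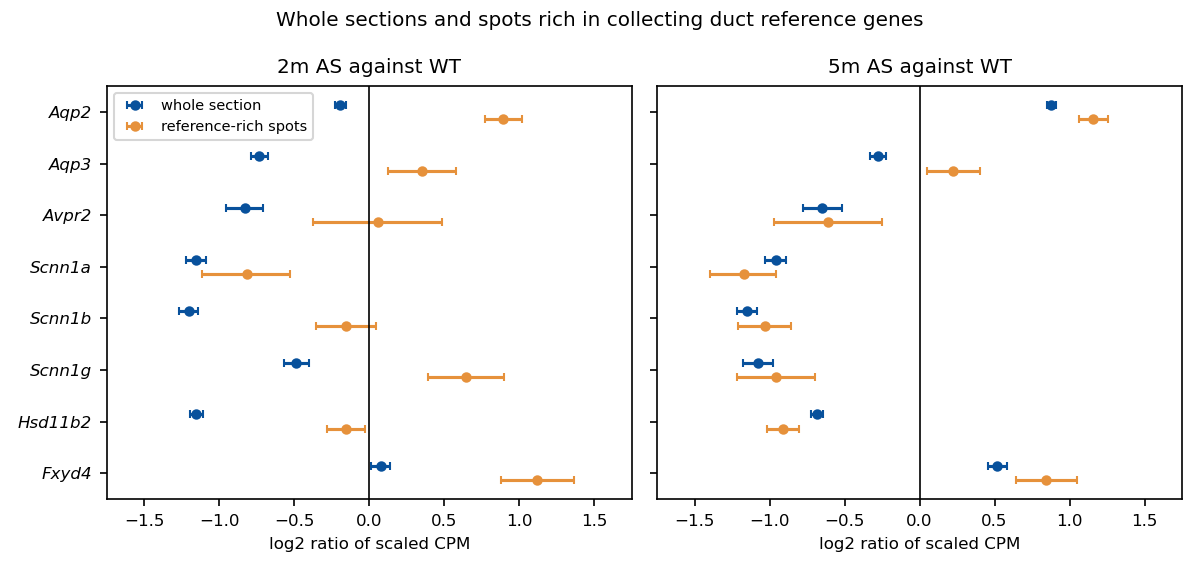
Log2 ratio of scaled CPM (horizontal axes) of 8 genes in 2m AS and 5m AS against WT, in whole sections and in spots rich in collecting duct reference genes, with 95% counting intervals and a line at 0. In 5m AS both sets of points fall on the same side for every gene but Aqp3 (0.825-fold and 1.17-fold), while in 2m AS Aqp2 goes from 0.875-fold in whole sections to 1.86-fold in rich spots.

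Over the spots of a library, the genes were found together to different degrees. The measure is Pearson's r of log-transformed UMIs per 10000 over spots, given as the median of the 6 libraries. Spots share a library and differ in depth, so it is a description. Among 13343 other genes detected in at least 1% of spots of every library, those most like Aqp2 were Hsd11b2 (0.620), Aqp3 (0.540) and Fxyd4 (0.482). Scnn1b followed at place 8 (0.412), Scnn1g at 15 and Avpr2 at 16 (both 0.368), and Scnn1a only at 59 (0.225). The most alike genes outside the 9 were Atp6v1g3 (0.460), a proton pump subunit of intercalated cells, Kcne1 (0.432), Rhcg (0.425), an ammonia transporter of the distal nephron and collecting duct, Spink8 (0.421) and Apela (0.405).

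Scnn1a was placed differently from the other subunits. Its most alike genes were Defb1 (0.461), Tmem52b (0.433) and Kcnj1 (0.432), the last a potassium channel of the thick ascending limb and distal nephron. Scnn1b was most like Atp6v1g3 (0.559), Rhcg (0.534), Klk1 (0.526) and S100g (0.524), and Scnn1g was most like Atp6v1g3 (0.543), Klk1 (0.516) and S100g (0.507). Klk1, a kallikrein, and S100g, a calcium-binding protein, are genes of the connecting tubule. With the summed markers of the distal convoluted and connecting tubule, r was 0.40 for Scnn1a, 0.35 for Scnn1b and 0.31 for Scnn1g, against 0.03 for Aqp2 and 0.01 for Fxyd4. With intercalated cell markers it was 0.68 for Hsd11b2, 0.59 for Scnn1b, 0.56 for Scnn1g and 0.52 for Aqp2.

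**Figure D5:**
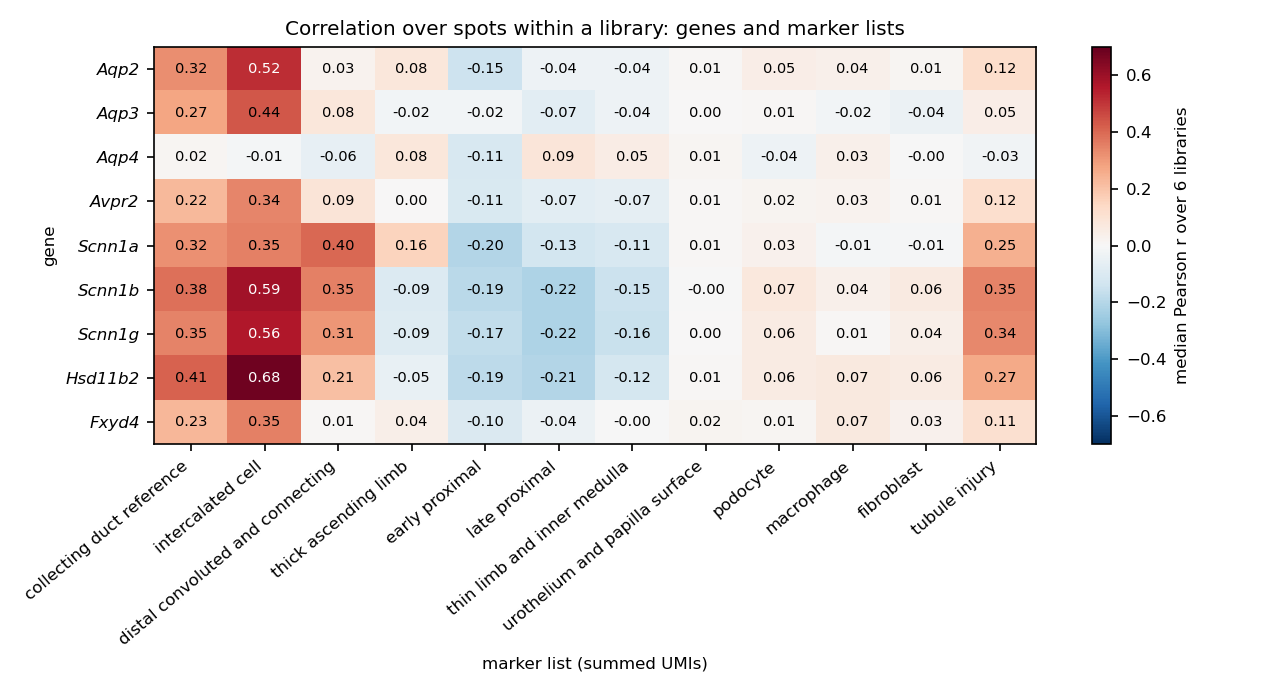
Median over the 6 libraries of Pearson's r over spots between each of the 9 genes (rows) and the summed UMIs of each of 12 marker lists (columns), with the value written in each cell and shown by colour from blue (negative) to red (positive). All rows but that of Aqp4 are reddest under intercalated cell or distal tubule markers, Hsd11b2 most at 0.68, and Aqp4 lies between -0.11 and 0.09 throughout.

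In 5m AS, Aqp2 was also placed differently. Its r with thick ascending limb markers was 0.400 there, and 0.0835 in WT, 0.0550 in mixed, 0.0799 in 2m AS, 0.0180 after early and 0.0961 after late treatment. Fxyd4 showed 0.247 in 5m AS and 0.0246 to 0.0759 elsewhere. In the 10% of each library's spots richest in thick ascending limb markers, Aqp2 in 5m AS was at 2.52-fold WT (2.38 to 2.67), Fxyd4 at 1.87-fold and Hsd11b2 at 1.08-fold (0.995 to 1.17). In the 10% richest in intercalated cell markers Aqp2 was at 2.59-fold (2.48 to 2.71) and Hsd11b2 at 0.657-fold. In the 10% richest in early proximal markers Aqp2 was at 1.28-fold. The summed thick ascending limb markers were 3486 scaled CPM in WT and 4965 in 5m AS, and those of intercalated cells 816 and 222. Whether these shifts bear on the Aqp2 ratios was not tested.

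In the 10% of each library's spots ranked highest by a list of tubule injury markers, Aqp2 in 5m AS was not above WT, and the ENaC subunits were well below it. In WT such a rank does not show injury, as given below. Of all Scnn1b UMIs, 29.1% lay in the 10% of spots richest in injury markers in WT, 29.8% in mixed, 28.4% in 2m AS, 8.37% in 5m AS, 12.2% after early and 16.0% after late treatment. All UMIs in those spots were 7.53% to 9.86% of a library. In them 5m AS had Scnn1b at 0.130-fold WT (0.112 to 0.150), Scnn1g at 0.131-fold, Scnn1a at 0.161-fold and Hsd11b2 at 0.227-fold, while Aqp2 was at 0.918-fold (0.857 to 0.984). The list's summed level was 1362 scaled CPM in WT and 7630 in 5m AS, and it includes Spp1 and Clu, which healthy distal tubule also expresses. In WT these made up nearly all of it, Spp1 at 665 and Clu at 682, while Havcr1 was at 0.395 and Lcn2 at 0.512. In 5m AS Havcr1 was at 152 and Lcn2 at 129. The ratios therefore compare spots that the list picked by different genes in WT and in 5m AS. The list's part in these ratios was not tested.

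The treated libraries differed from 5m AS by place as well. In intercalated-rich spots, early treated 5m AS had Aqp2 at 1.05-fold (1.01 to 1.09), Scnn1g at 2.87-fold and Hsd11b2 at 1.91-fold, and in thick ascending limb-rich spots it had Aqp2 at 0.486-fold (0.460 to 0.513). Late treated 5m AS had Aqp2 at 0.413-fold and 0.364-fold in these 2 kinds of spot. Fxyd4 was at 0.501-fold and 0.319-fold in early treated, and at 0.366-fold and 0.317-fold in late treated 5m AS. The lower Aqp2 of the late treated library was thus seen in both kinds of spot, and that of the early treated library in 1 of them. In collecting duct-rich spots, early treated Aqp2 was also lower, at 0.646-fold. The spots are the richest 10% of each library, and the lists differed in level. In 5m AS, early and late treated libraries, intercalated cell markers summed to 222, 410 and 473 scaled CPM, and thick ascending limb markers to 4965, 2978 and 3020. Their part in these ratios was not tested.

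Where Aqp4 lay differed between libraries. In the mixed library 79.3% of its 812 UMIs (76.4 to 82.0, exact binomial) were in the 10% of spots richest in late proximal tubule markers, which held 17.5% of all UMIs. In 2m AS it was 60.0% of 145 UMIs and in WT 52.8% of 36, but 18.1% of 116 in 5m AS. In spots rich in collecting duct, by contrast, lay 1.48% of its UMIs in mixed and 16.4% in 5m AS (10.2 to 24.4), where these spots held 5.69% and 5.07% of all UMIs. After early and late treatment the rich spots held 12 and 9 of its UMIs, 36.4% (20.4 to 54.9) and 37.5% (18.8 to 59.4), beside 14.7% and 14.5% of all UMIs. The r of Aqp4 with the late proximal markers was 0.549 in mixed and at most 0.173 elsewhere. The genes most like it were Mettl7a2, Serpina1d and Slc22a13, with median r of 0.128, 0.125 and 0.117. The late proximal list itself was lowest in the mixed library, at 455 scaled CPM against 2189 in WT, with Slc7a13 at 0.617 against 726 and Serpina1f at 223 against 14.7. Whether this bears on Aqp4 was not tested.

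After thinning to 5000 UMIs, at least 1 Aqp2 UMI was found in 50.4% of WT spots, 53.0% of mixed, 38.2% of 2m AS, 68.7% of 5m AS, 49.7% of early treated and 39.4% of late treated spots. Unthinned, the shares were 81.5%, 81.6%, 77.2%, 93.4%, 70.2% and 68.8%. In rich spots the thinned shares were 74.5%, 79.9%, 74.3%, 86.4%, 70.8% and 56.7%. In early proximal-rich spots, where principal cells should be few, the thinned shares were 38.1%, 38.6%, 31.9%, 50.5%, 38.4% and 34.5%. Spots below 5000 UMIs were left out, between 65 in 5m AS and 626 after early treatment. The median depth was 12277 to 19065 UMIs in rich spots and 14627 to 24925 in early proximal-rich spots. A spot covers several cells and takes up RNA spread from its neighbours, so the presence of a UMI does not place a principal cell there. The 10% of spots highest in Aqp2 held 37.6% of its UMIs in WT, 42.3% in 5m AS and 59.2% in early treated 5m AS.

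The genes around these 9 were read from 3 lists. The vasopressin pathway list holds adenylyl cyclases, protein kinase A subunits, phosphodiesterases and prostaglandin receptors. In 2m AS against WT, 1 of its 18 measured genes was at least 1.5-fold higher and 2 were lower, beside 7.78% and 8.28% of all genes. In 5m AS against WT, 4 of 20 were higher and 1 was lower, beside 11.9% and 12%. Arrb2, a beta-arrestin, was at 2.20-fold and Ptges, a prostaglandin E synthase, at 0.553-fold in 5m AS. The median log2 ratios of the list were -0.14 and 0.02. In early treated against untreated 5m AS 1 gene was higher and 2 lower of 20, beside 3.98% and 4.86% of all genes. Ptges was at 1.67-fold and Arrb2 at 0.638-fold. In late treated 5m AS 1 was higher and 3 lower, beside 7.94% and 11.1% of all genes. Arrb2 was at 0.535-fold and Crem, a cyclic AMP-responsive regulator, at 0.597-fold.

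The mineralocorticoid list holds the receptor Nr3c2, its target kinase Sgk1, ENaC proteases and the WNK pathway. In 2m AS against WT, 0 of 21 genes passed 1.5-fold upward and 7 downward, beside 7.78% and 8.28% of all genes, with a median of -0.39. Among the 7 were Per1 at 0.403-fold, Fkbp5 at 0.426-fold and St14, a membrane-bound serine protease, at 0.534-fold. In 5m AS 0 were higher and 8 lower, beside 11.9% and 12% of all genes, with a median of -0.50. The 8 included Klhl3 at 0.346-fold and Wnk1 at 0.506-fold, which act on sodium chloride transport in the distal convoluted tubule. Markers of the distal convoluted and connecting tubule summed to 551 scaled CPM in 5m AS and 1625 in WT. Whether this bears on the list was not tested. In early treated against untreated 5m AS 5 were higher and 0 lower, beside 3.98% and 4.86% of all genes. The 5 were led by Wnk1 at 1.99-fold and Klhl3 at 1.98-fold. In late treated 5m AS 5 were higher and 4 lower, beside 7.94% and 11.1% of all genes. Klhl3 was at 2.62-fold, and Per1 at 0.329-fold and Sgk1 at 0.471-fold were among the lower. The markers of the distal convoluted and connecting tubule rose in these comparisons too, from 551 scaled CPM in untreated 5m AS to 1315 after early and 1503 after late treatment. Their part in the list's ratios was not tested.

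Sgk1 did not follow the ENaC subunits. It had 96.1 scaled CPM in WT, 306 in mixed, 60.6 in 2m AS, 134 in 5m AS, 118 after early and 63.3 after late treatment. It was thus above WT in 5m AS, where Scnn1a, Scnn1b and Scnn1g were below it. Between the treated libraries, early had 1.87-fold as much as late, together with Fkbp5 at 2.95-fold, Per1 at 2.23-fold and Tsc22d3 at 2.05-fold, all glucocorticoid-responsive genes. These were the 4 of 21 genes that were higher, beside 3.7% of all genes, and 0 were lower, beside 2.02%. Of 7 measured tonicity genes, 0 were higher and 1 lower in 2m AS against WT, beside 7.78% and 8.28% of all genes. In 5m AS against WT there were 0 either way, beside 11.9% and 12%. In late treated against untreated 5m AS 0 were higher and 3 lower, beside 7.94% and 11.1%, and Slc5a3, the inositol transporter, was at 0.529-fold.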

How the data were processed

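Spot-level UMI counts came from 10x Visium sections of kidney that was frozen in OCT and cut at 10 um, per the labels' protocols. Per the file headers, the deposited counts were made with Space Ranger 1.2.1 (WT, 5m AS) or 1.3.1 (the other 4 libraries), and the build was mm10 per the submitters' processing notes. Strand handling was not given in the sources used here.

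From these whole-number counts, UMIs were summed over all spots of a library and scaled with TMM factors (edgeR 4.0.16, R 4.3.3), giving scaled CPM. The factors were 0.801 to 1.18. Ratios carry the exact 95% interval of a ratio of Poisson counts, which covers counting error only. A floor of 3 counts equals 0.0407 to 0.0521 scaled CPM. With 1 library a group, no test was run. A gene counted as measured at 5 scaled CPM or more in 1 of the 2 libraries, and as higher or lower past 1.5-fold. Poisson counts were simulated for 10589 genes, with 200 of them changed 2-fold up or down. Of the changed genes 100% were recovered, and 95.4% of intervals held the true ratio. The simulation held no variation between animals or sections, so it checks the calculation and not how far the ratios would repeat. Spots under 500 UMIs were left out of spot measures. Spot shares were thinned to 5000 UMIs. Rich spots and list-rich spots were scaled with the same factors. No doublet caller was run. Python 3.11.15, numpy 2.4.6, scipy 1.17.1, pandas 2.3.3 and matplotlib 3.10.9 were used, and DESeq2 1.42.0 gave median-of-ratios size factors as an alternative.

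All 9 genes are named. From each pathway list, up to 4 genes with the largest ratio among those with at least 20 scaled CPM in 1 library are named, and other genes were named after their values were seen. The values of 1 list gene are not reported here. The 9 genes and the lists were chosen with earlier results of these data known. Alternatives covered scaling, the minimum level, spot filters, the reference genes and the mixed library in place of WT. Spots were also taken as the richest 10% within each library and by thinned reference share, which were chosen after seeing the data.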

Additional observations from a re-analysis of the deposited data

Results flagged for a closer look

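Aqp2 was at 0.875-fold WT in 2m AS and at 1.84-fold WT in 5m AS, so in sums over whole sections the 2 untreated Alport libraries lay on opposite sides of WT. Per 100 reference UMIs there were 76.8 Aqp2 UMIs in 2m AS and 64.0 in WT, and in collecting duct-rich spots 2m AS was at 1.86-fold WT, so that both libraries were above WT on those scales. Those scales are not independent, because they rest on the same reference genes. The reference sum was 229 scaled CPM in 2m AS and 315 in WT, with Tfcp2l1 at 61.5 and 135. What this adds to the 2m AS values was not tested. The whole-section ratios of 2m AS and 5m AS share the WT library, each group is 1 library, and the difference was not tested.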

How the results depend on the processing

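The number of the 9 genes past 1.5-fold in either direction was within 1.5 times the reported one under the alternatives, with these exceptions. In 5m AS against 2m AS (2 reported) it was 6 in plain CPM, 4 in collecting duct-rich spots, and 1 with TMM factors made without mitochondrially encoded genes or with spots of at least 5000 UMIs. In 2m AS against WT (5 reported) it was 3 per reference UMI. In mixed against WT (2 reported) it was 4 in rich spots and 1 at a minimum of 20 scaled CPM, and in early against late treated 5m AS (2 reported) 1 in rich spots. No share of all genes is given here for rich spots, so how unusual the counts in them are cannot be judged. Of 522 log2 ratios of single genes under alternatives, 320 moved by less than counting error. Their sign differed from the reported one in 40, 18 of them among the 63 ratios in rich spots. Of the ratios of measured genes past 1.5-fold 2 reversed, both in rich spots of 2m AS against WT: Aqp3 to 0.35 and Avpr2 to 0.060. The cause was not tested. Relative to the reference, the log2 ratio of 5m AS to WT was 1.01 for Aqp2, and 0.88 to 1.19 with each reference gene left out in turn. For Scnn1b it was -1.02, and -1.15 to -0.85. In the upper 5% of spots by reference share, Aqp2 in 5m AS was at 1.94-fold WT, a log2 ratio of 0.96. The share of spots with Aqp2 depends on depth by construction: thinned to 10000 and 2500 UMIs it was 70.3% and 32.2% in WT, 69.2% and 36.8% in mixed, 54.1% and 24.9% in 2m AS, 85.3% and 50.4% in 5m AS, then 66.9% and 36.8% after early and 55.3% and 24.8% after late treatment. No paired analysis was possible because each group is 1 library. No replicate could be left out for the same reason.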
